A study of Mus musculus with 24 samples.

Results

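Corticosterone, the main circulating glucocorticoid of the mouse, was set against chow in the inguinal white fat of male control mice. The libraries were chosen by their titles and diet or treatment labels: 4 corticosterone libraries (numbers 1, 2, 3 and 4) and 4 chow libraries (numbers 1, 2, 4 and 5), or 8 of the 24 libraries of the series. Control mice carried floxed alleles of Nr3c2, the mineralocorticoid receptor gene, and no Cre recombinase, so the floxed alleles are shared by both groups. The series also holds 4 control libraries on a high-fat diet and the same 3 conditions in FMRKO mice, in which Cre under the promoter of adiponectin, a gene of fat cells, deletes the receptor in adipocytes. The sources used here do not give a vehicle group, the dose or length of corticosterone treatment, the age of the mice or the time of day of collection. The titles of the chow libraries carry a leading number and those of the others do not; if that marks a batch, it cannot be told apart from the treatment. Whether the libraries of a group come from different animals is not stated, and the p-values reflect how far these libraries vary, which may be technical.

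Glucocorticoids diffuse into cells and bind the glucocorticoid receptor (Nr3c1), which sits with heat shock proteins in the cytoplasm and then moves to the nucleus. There it binds DNA at pairs of a short hexamer and also represses genes of inflammation. Fat cells take part in setting their own exposure: 11beta-hydroxysteroid dehydrogenase type 1 regenerates active corticosterone inside the cell. In fat, long exposure is known to favour storage of lipid in adipocytes while restraining immune and matrix genes, and glucocorticoids also reset peripheral clocks.

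Libraries held 24712325 to 40427675 counts in the corticosterone group and 20274665 to 30060098 in the chow group, and values are given as CPM, counts scaled to a common library size, after trimmed-mean (TMM) scaling. Defining adipocyte genes were abundant in every library: Fabp4, the fatty acid binding protein of fat cells, lay between 11050 and 14770 CPM with corticosterone and between 4075 and 8165 CPM on chow. Markers of other tissues were read as well, and their source was not tested. The 18 skeletal muscle markers, 17 of them tested, summed to 117, 2653, 132 and 91.5 CPM in the corticosterone libraries and 131, 55.9, 67.5 and 105 CPM in the chow libraries, so corticosterone library 2 stood apart. The 12 hepatocyte markers summed to 829, 124, 380 and 23.2 CPM with corticosterone and 612, 14.7, 671 and 27.6 CPM on chow, which put corticosterone libraries 1 and 3 and chow libraries 1 and 4 on the high side. The 18 lymph node lymphocyte markers summed to 227 to 621 CPM with corticosterone and 100 to 778 CPM on chow, and chow library 4 was the highest. Erythrocyte markers, 6 of 7 of which rose, summed to 3543, 2396, 3178 and 2452 CPM with corticosterone and 984, 847, 1010 and 561 CPM on chow, without overlap. The part of blood cells in the results was not tested, as no setting used erythrocyte markers. That of liver and lymph node was not tested beyond the settings in which covariates were added or libraries were left out.

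**Figure D1:**
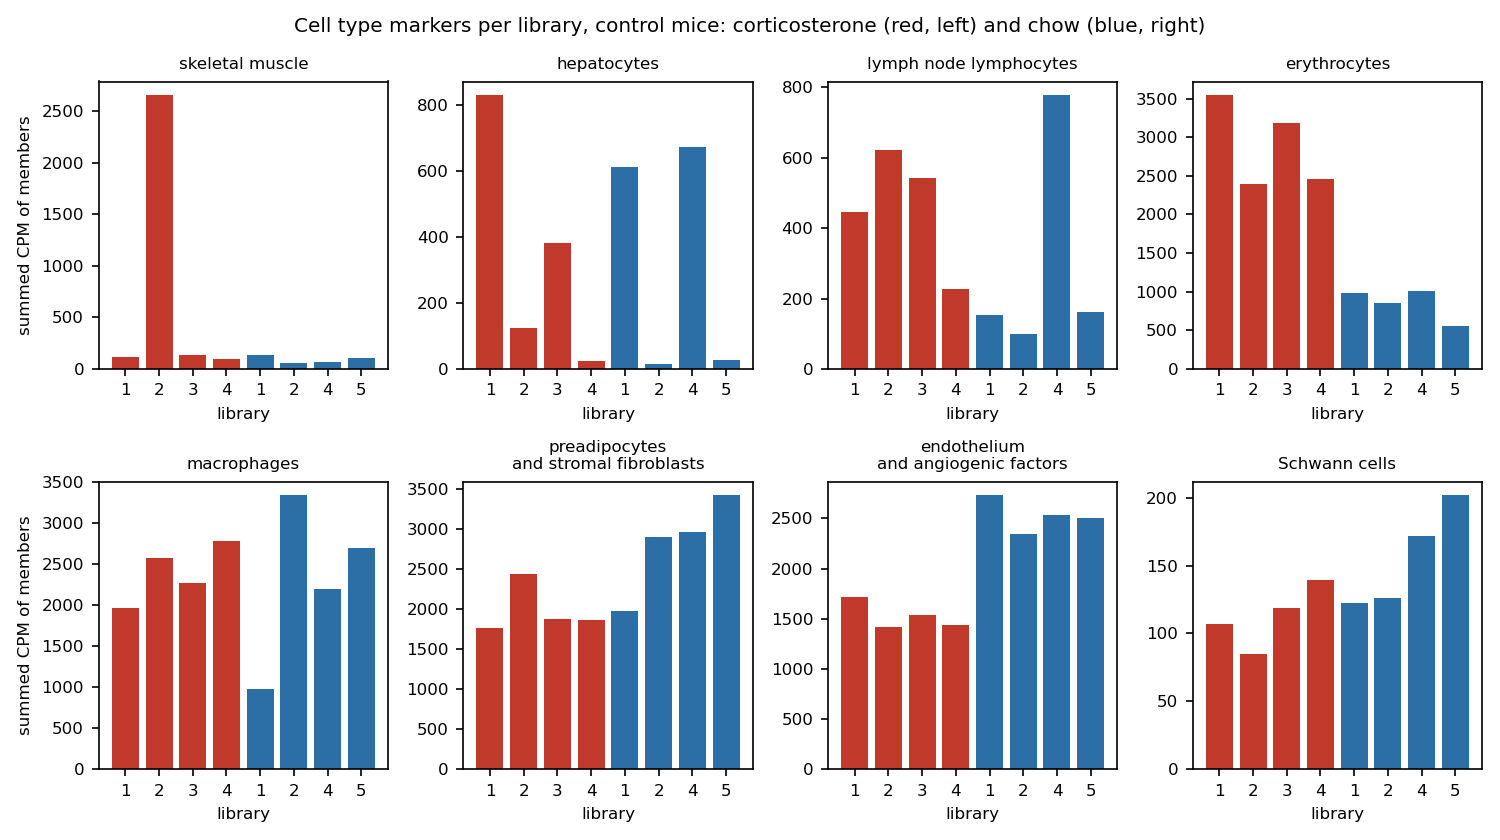
Summed CPM of cell type marker lists in each library of control mice, 1 bar per library, with the 4 corticosterone libraries (red, left) and the 4 chow libraries (blue, right). Muscle transcripts reached 2653 CPM in corticosterone library 2, liver transcripts were high in 2 libraries of each group, and erythrocyte transcripts were higher in all 4 corticosterone libraries.

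A large share of genes differed in level between the corticosterone and chow libraries. Of 19717 genes tested, 3986 rose (20.2%) and 4467 fell (22.7%) at an adjusted p under 0.05 in edgeR's quasi-likelihood test, 8453 or 42.9% in all. At least 2-fold changes ran mostly downward: 838 genes rose (4.25%) and 2161 fell (11.0%) by that much. In 3880 genes (19.7%) all 4 corticosterone libraries lay above all 4 chow libraries, and in 4383 (22.2%) all 4 lay below, 8263 (41.9%) in all. Protein-coding genes made up 94.8% of the genes that rose and 75.9% of those that fell, against 77.5% of all genes tested. The median log2 fold change over all genes was -0.12, the level against which the gene groups below are read. Counts of list members that rose or fell are likewise read against the shares of all genes, 20.2% and 22.7%. With the 4 liver-rich libraries left out, an alternative chosen after the data were seen, 5547 genes were called, and the count that fell was 2503. That setting leaves 2 libraries in each group. Where a call is lost in it below, fewer libraries and less liver RNA cannot be told apart. With liver markers as a covariate and all libraries kept, 8631 genes were called, and the count that fell was 4535.

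**Figure D2:**
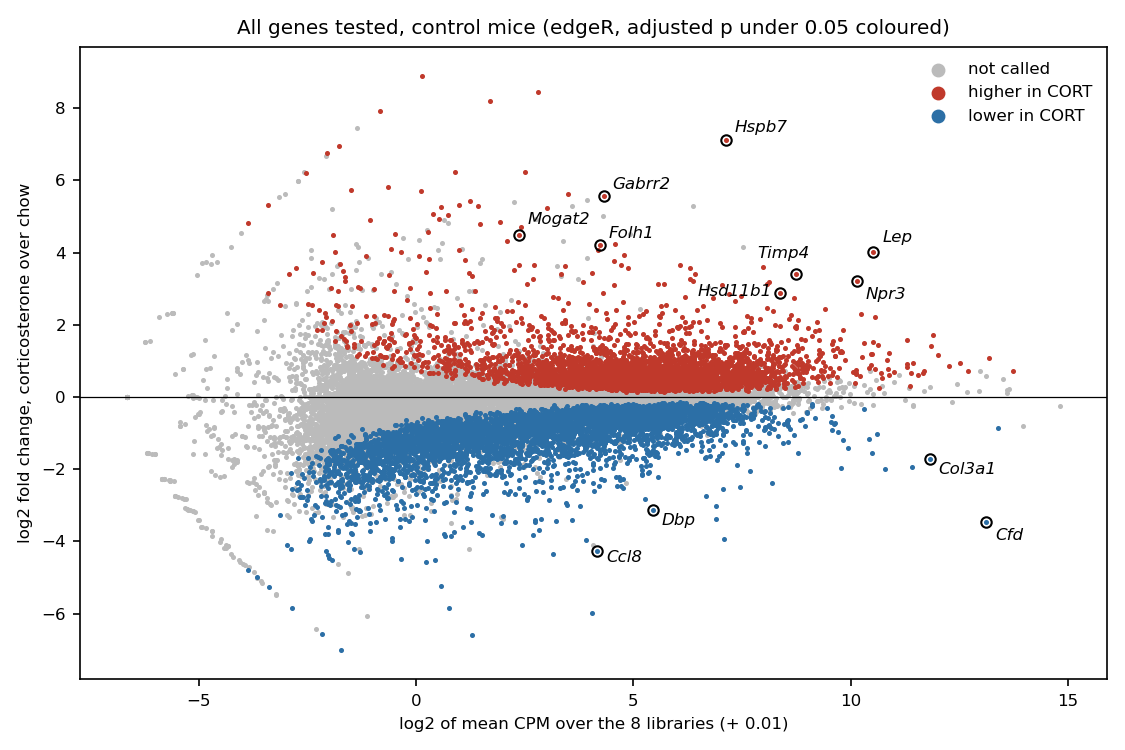
Log2 fold change of corticosterone over chow (vertical) against the log2 of the mean CPM over the 8 libraries (horizontal) for all genes tested in control mice, 1 point per gene, red where higher, blue where lower and grey where not past the threshold, with 12 named genes circled. Genes that fell by 2-fold or more (2161) outnumbered those that rose by that much (838).

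The first group takes in the receptors, chaperones and enzymes through which the hormone acts. Hsd11b1 (ENSMUSG00000016194, GRCm38 chromosome 1, 193221630 to 193264054, minus strand), which encodes 11beta-hydroxysteroid dehydrogenase type 1, had 774, 395, 427 and 763 CPM in the corticosterone libraries, against 75.1, 53.9, 99.7 and 90.2 CPM in the chow libraries. The groups were far apart, with a log2 fold change of 2.89 ± 0.26 (SE; adjusted p = 8.8e-08). H6pd, which encodes the enzyme that feeds NADPH to that dehydrogenase, had 1056, 823, 766 and 834 CPM with corticosterone and 429, 420, 523 and 419 CPM on chow, a log2 fold change of 0.96 ± 0.15 (adjusted p = 5e-05). Both enzymes of this reducing step therefore rose without overlap of the groups. The inactivating enzyme Hsd11b2 was scarce, at 1.76 to 2.48 CPM with corticosterone and 2.41 to 4.70 CPM on chow, and its fall of 0.79 ± 0.27 on the log2 scale (adjusted p = 0.023) lost its call when chow library 4 or 5 or corticosterone library 1 or 3 was left out.

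Neither receptor gene passed the test. Nr3c1 had 160, 158, 174 and 162 CPM with corticosterone and 206, 158, 168 and 200 CPM on chow, a log2 fold change of -0.17 ± 0.12 (adjusted p = 0.259). Nr3c2 had 16.2, 18.4, 18.2 and 14.1 CPM with corticosterone and 23.7, 17.6, 23.8 and 28.7 CPM on chow, a log2 fold change of -0.49 ± 0.20 (adjusted p = 0.051). The groups overlapped for both genes. Nr3c2 lay at the threshold and passed in DESeq2 (adjusted p = 0.046), and with muscle and lymph node markers as covariates both passed, Nr3c1 at -0.25 and Nr3c2 at -0.67. Fkbp5, a cochaperone that dampens the receptor and is itself one of its classic targets, had 411, 250, 188 and 248 CPM with corticosterone, against 67.1, 92.8, 205 and 102 CPM on chow. It rose by 1.23 ± 0.32 on the log2 scale (adjusted p = 0.004), although chow library 4 lay above corticosterone library 3. Of the 15 members of this list, 4 rose (Hsd11b1, H6pd, Fkbp5 and the coactivator Ncoa1) and 2 fell (Hsd11b2 and the steroid exporter Abcb1a), with a median log2 fold change of 0.08. Neither of the 2 passed without chow library 4 or without the liver-rich libraries. Ncoa1 did not pass without the liver-rich ones (adjusted p = 0.082). Over all genes tested, 20.2% rose and 22.7% fell.

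Genes known to respond to glucocorticoids rose in part. Of 32 tested, 13 rose and 3 fell, and the median log2 fold change was 0.34, against -0.12 for all genes. Tsc22d3 (ENSMUSG00000031431, chromosome X, 140539528 to 140600659, minus strand), which encodes the glucocorticoid-induced leucine zipper, had 422, 316, 233 and 280 CPM with corticosterone, against 58.4, 73.9, 139 and 63.8 CPM on chow. Its log2 fold change was 1.90 ± 0.25 (adjusted p = 7.4e-06), and the lowest corticosterone library stood above the highest chow library. Hif3a, a hypoxia-inducible factor subunit, had 73.0, 33.2, 14.8 and 46.4 CPM with corticosterone, against 2.80, 3.08, 9.67 and 4.18 CPM on chow, and rose by 3.09 ± 0.46 (adjusted p = 2.4e-05). The cell cycle inhibitor Cdkn1a had 189, 203, 152 and 120 CPM with corticosterone and 27.3, 38.8, 32.6 and 17.3 CPM on chow, a log2 fold change of 2.51 ± 0.28 (adjusted p = 1.1e-06). These 3 genes did not overlap between the groups. Pdk4, which restrains pyruvate oxidation, rose by 1.95 ± 0.37, Angptl4, an inhibitor of lipoprotein lipase, by 1.27 ± 0.19, the transcription factor Foxo1 by 1.28 ± 0.19, and the metallothioneins Mt1 and Mt2 by 1.57 ± 0.33 and 1.69 ± 0.43.

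Other well-known responders did not follow. Per1, a clock gene that glucocorticoids induce directly, had 210, 113, 108 and 130 CPM with corticosterone and 169, 189, 370 and 165 CPM on chow, a log2 fold change of -0.67 ± 0.29 (adjusted p = 0.067). Zbtb16 had 375, 253, 166 and 318 CPM with corticosterone and 262, 178, 340 and 116 CPM on chow, a log2 fold change of 0.31 ± 0.34 (adjusted p = 0.49). Both groups of values overlapped widely. Sgk1, a kinase induced by both corticosteroid receptors in many tissues, went the other way, with 65.3, 42.7, 37.8 and 43.9 CPM under corticosterone and 68.8, 87.8, 107 and 61.9 CPM on chow. Its fall of 0.78 ± 0.24 (adjusted p = 0.014) lost its call without chow library 4 (-0.62, adjusted p = 0.061) or without corticosterone library 3 (-0.66, adjusted p = 0.054). The other 2 that fell were Nfkbia, an inhibitor of NF-kappaB, by 0.80 ± 0.16 (adjusted p = 0.00061, or 0.056 without the liver-rich libraries), and the acute phase gene Saa3 (-2.36 ± 0.88, adjusted p = 0.034), which rested on chow library 2 and was at -0.64 (adjusted p = 0.54) without it. The list's count that fell was 1 without corticosterone library 3 or without the liver-rich libraries. It was 5 under upper quartile scaling and 6 with muscle and lymph node covariates.

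Promoters of 3 genes are shown because their transcripts moved in different directions and they hold the motifs searched: the receptor's hexamer AGAACA or its reverse complement TGTTCT, and the clock E-box CACGTG. Each is the 250 bases before an annotated start from the RefSeq promoter table for GRCm38.p6, written 5′ to 3′ on the gene's own strand with the motifs in capitals.
Tsc22d3, chrX:140600523-140600772, minus strand: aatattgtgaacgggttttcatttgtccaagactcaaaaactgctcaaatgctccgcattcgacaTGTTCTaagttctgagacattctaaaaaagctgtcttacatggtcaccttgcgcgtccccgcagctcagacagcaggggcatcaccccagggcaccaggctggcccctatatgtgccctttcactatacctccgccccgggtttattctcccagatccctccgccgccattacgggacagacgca
Sgk1, chr10:21993640-21993889, plus strand: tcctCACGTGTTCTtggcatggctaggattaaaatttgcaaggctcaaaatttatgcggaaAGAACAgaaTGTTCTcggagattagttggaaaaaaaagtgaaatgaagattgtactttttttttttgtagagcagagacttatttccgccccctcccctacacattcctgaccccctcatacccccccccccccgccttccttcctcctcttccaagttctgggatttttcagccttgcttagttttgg
Ciart, chr3:95882229-95882478, minus strand: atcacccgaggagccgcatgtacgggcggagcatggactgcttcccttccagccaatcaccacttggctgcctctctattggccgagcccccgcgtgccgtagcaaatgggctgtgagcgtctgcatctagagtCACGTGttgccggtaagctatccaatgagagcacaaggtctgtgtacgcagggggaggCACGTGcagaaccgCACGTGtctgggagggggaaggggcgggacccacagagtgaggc
The Sgk1 promoter, 1 of 6 listed for that gene, holds both hexamers as an inverted repeat with 3 bases between them, and a further TGTTCT that overlaps an E-box. The Tsc22d3 promoter, 1 of 3 listed, holds TGTTCT once. Ciart, a clock repressor described with the clock genes, has 3 E-boxes in its only listed promoter. Among the promoters of genes that rose at least 2-fold, 82 of 681 (12.0%) held the hexamer on either strand, against 215 of 1536 (14.0%) for genes that fell at least 2-fold and 2193 of 16264 (13.5%) over the 12813 tested genes with a listed promoter, searched from 250 bases before to 50 after the start. The E-box was in 8.08%, 6.12% and 8.99% of the same 3 sets. The full inverted repeat was in 2 of 16264 promoters, those of Acnat2, which rose, and Sgk1, which fell. These are matches of letters in short windows and say nothing of binding.

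Some transcripts that were low on chow were many-fold higher with corticosterone, though Ripply1 and Rnase2a stayed low there too. Hspb7 encodes a small heat shock protein known from heart and muscle (ENSMUSG00000006221, chromosome 4, 141420779 to 141425311, plus strand). It had 241, 360, 218 and 298 CPM in the corticosterone libraries, against 0.707, 4.98, 0.750 and 1.28 CPM in the chow libraries, a log2 fold change of 7.13 ± 0.64 (adjusted p = 7.7e-08). The muscle-rich corticosterone library 2 was the highest, and the other 3 of that group were still far above every chow library. Without chow library 2, the highest of its group, the log2 fold change was 8.32. Cryab, another small heat shock protein, had 542, 444, 414 and 483 CPM with corticosterone and 54.3, 29.8, 44.4 and 27.5 CPM on chow (3.59 ± 0.24, adjusted p = 3.3e-09). Ripply1, a repressor known from somite formation, was read in every corticosterone library at 0.990 to 4.24 CPM and had 0 counts in the chow libraries, so it was at least 81.3-fold higher against a floor of 3 counts over the group. Rnase2a, which encodes an eosinophil-associated ribonuclease, had 757 counts over the corticosterone libraries and 2 over the chow libraries, a depth-adjusted ratio of 365 (95% interval 101 to 3014, counting error only). Gabrr2, a GABA receptor subunit, had 52.7, 45.02, 29.8 and 29.0 CPM with corticosterone and 1.03, 0.543, 1.22 and 0.484 CPM on chow, and rose by 5.57 ± 0.40 (adjusted p = 7.6e-09).

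The gene with the smallest p was Folh1, which encodes a glutamate carboxypeptidase, at 36.3, 37.3, 40.8 and 28.2 CPM with corticosterone and 2.15, 1.63, 1.78 and 2.11 CPM on chow (4.21 ± 0.20, adjusted p = 3.7e-11). Among the 7 genes next by p were Cdr2 (3.40 ± 0.20), the LIM-domain gene Fhl1 (3.19 ± 0.20), the patched-related gene Ptchd4 (3.67 ± 0.24) and the antioxidant enzyme Prdx6 (2.74 ± 0.18), each without overlap. Among the most abundant transcripts, beta-actin (Actb) had 4902, 6443, 6042 and 5515 CPM with corticosterone and 2797, 3454, 1996 and 2041 CPM on chow, a rise of 1.16 ± 0.24. The cytoskeletal genes Vim (1.58 ± 0.16) and Tns1 (1.42 ± 0.20) and the amine oxidase Aoc3 (1.23 ± 0.21) rose as well.

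At the other end, Cfd, which encodes adipsin, the complement factor D of fat cells (ENSMUSG00000061780, chromosome 10, 79890853 to 79892656, plus strand), had 1546, 1008, 1827 and 1571 CPM with corticosterone and 19290, 11970, 17650 and 16320 CPM on chow. Its log2 fold change was -3.45 ± 0.35 (adjusted p = 3.8e-07). Per kilobase of gene, its mean level was 1612 CPM with corticosterone and 17670 CPM on chow, while Lep averaged 827 CPM per kilobase with corticosterone and 51.6 on chow. Prtn3, which encodes proteinase 3 and lies upstream of Cfd on chromosome 10 (79874476 to 79883174), had 1.58, 1.31, 2.64 and 1.75 CPM with corticosterone and 31.9, 28.1, 21.1 and 32.8 CPM on chow (-3.97 ± 0.44, adjusted p = 8.5e-07). The adhesion receptor gene Celsr2 had 17.99, 16.1, 21.9 and 10.7 CPM with corticosterone and 298, 183, 282 and 258 CPM on chow (-3.94 ± 0.35, adjusted p = 7.3e-08). The chemokine Ccl8 fell by 4.28 ± 0.76 and the guanylate-binding gene Gbp11 by 4.34 ± 0.79. None of these overlapped between the groups.

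Adipokines, the hormones and factors that fat secretes, moved in both directions. Of 25 tested, 12 rose and 4 fell (Cfd, Igf1, Vegfa and Nrg4), with a median log2 fold change of 0.73. Lep, which encodes the satiety hormone leptin (ENSMUSG00000059201, chromosome 6, 29060220 to 29073877, plus strand), had 3012, 3412, 2713 and 1961 CPM with corticosterone and 164, 85.2, 227 and 216 CPM on chow. Its log2 fold change was 4.00 ± 0.30 (adjusted p = 1e-08), and the lowest corticosterone library was several-fold above the highest chow library. Adiponectin (Adipoq) lay at 1488, 1333, 1581 and 1664 CPM with corticosterone and 1575, 931, 1435 and 1244 CPM on chow, a log2 fold change of 0.23 ± 0.21 (adjusted p = 0.399), with overlapping groups. Sfrp5, a secreted Wnt inhibitor, had 121, 191, 185 and 77.1 CPM with corticosterone and 19.8, 11.4, 16.0 and 12.9 CPM on chow (3.26 ± 0.27, adjusted p = 4e-08). Angiotensinogen (Agt, 2.09 ± 0.49), the growth factor Fgf1 (2.64 ± 0.19) and Angptl8 (1.99 ± 0.33) rose too. Igf1 fell by 0.91 ± 0.23 and Vegfa by 0.79 ± 0.20.

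**Figure D3:**
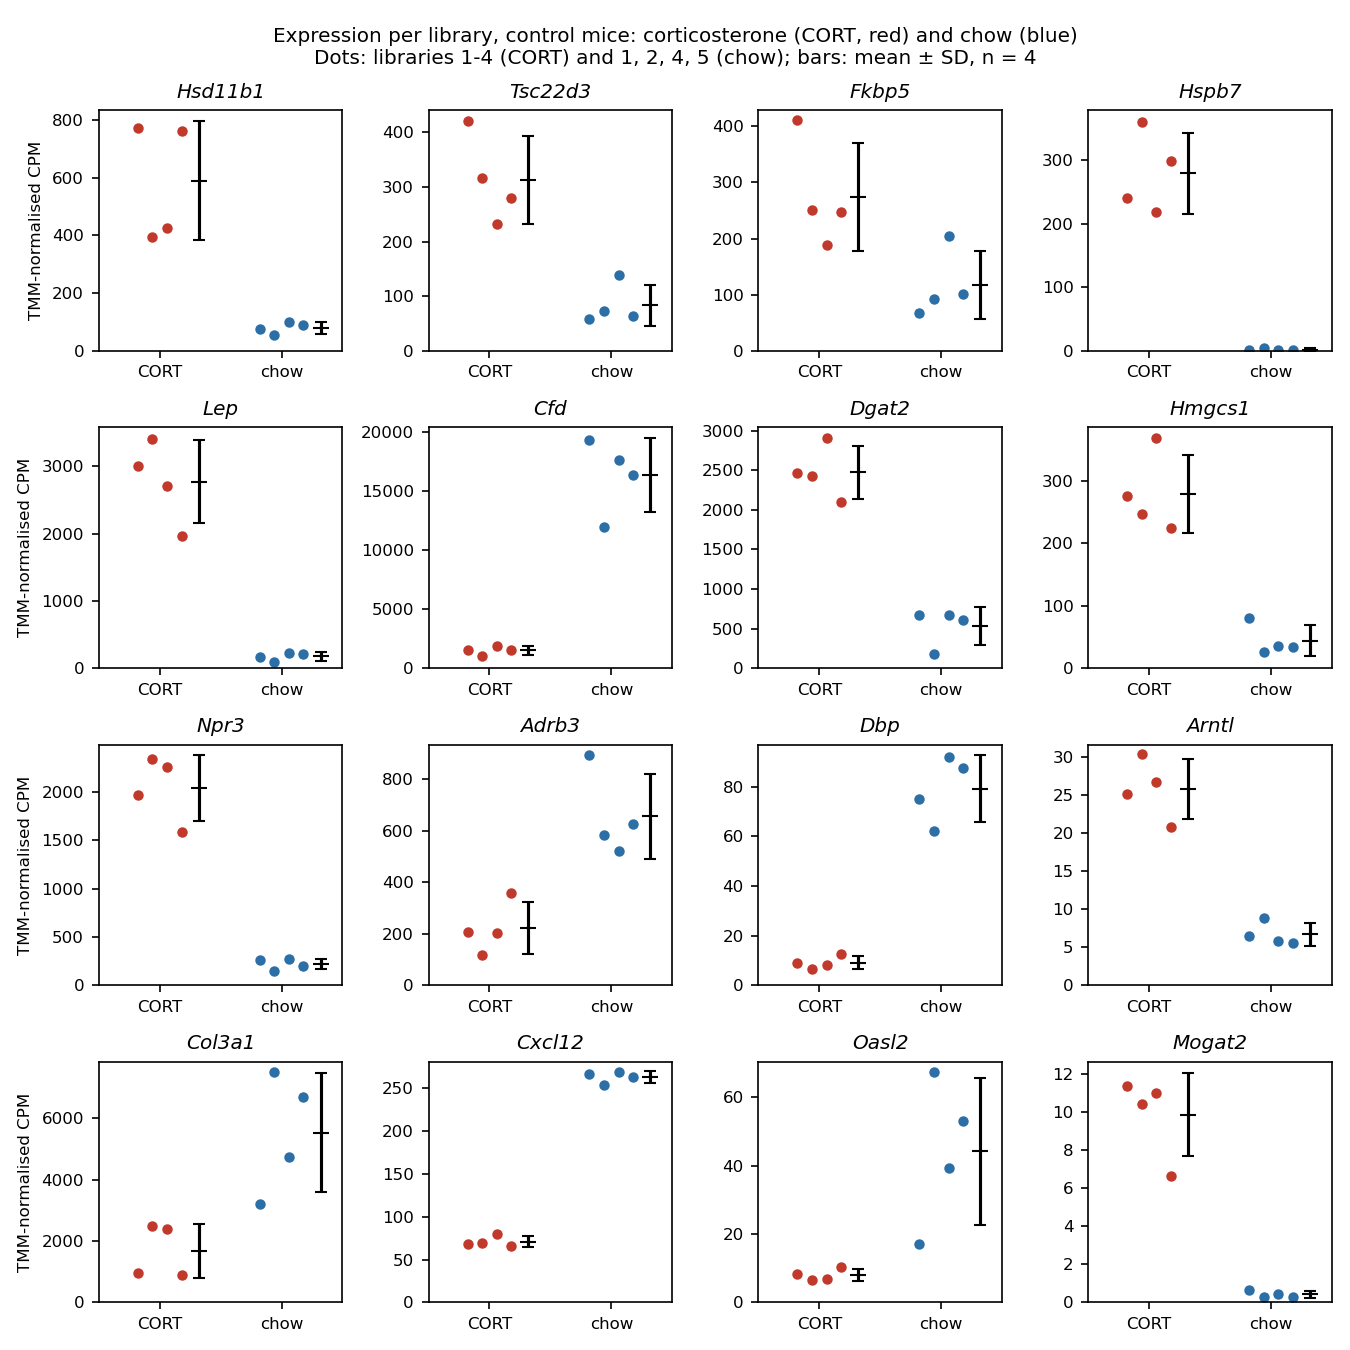
CPM (linear axis from 0) of 16 genes in the corticosterone libraries (left, red) and chow libraries (right, blue) of control mice, 1 point per library, with mean ± SD (n = 4). For Lep, Hsd11b1 and Hspb7 all corticosterone libraries lie above all chow libraries, for Cfd and Dbp all lie below, and for Fkbp5 the groups overlap.

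Genes that make and store triglyceride rose at some steps. Dgat2, which catalyses the last step of triglyceride synthesis, had 2469, 2426, 2907 and 2095 CPM with corticosterone and 674, 176, 665 and 612 CPM on chow, a log2 fold change of 2.22 ± 0.32 (adjusted p = 1.8e-05). Mogat2, the monoacylglycerol acyltransferase known from the gut, was scarce on chow at 0.302 to 0.675 CPM and reached 6.63 to 11.4 CPM with corticosterone (4.50 ± 0.43). Agpat2 rose by 1.35 ± 0.30 and Gpd1, which makes glycerol 3-phosphate, by 1.26 ± 0.24. In the triglyceride synthesis list 5 of 15 rose and 1 fell, the lipin gene Lpin2 (-0.53 ± 0.18), whose call was lost without chow library 2 or corticosterone library 1, 2 or 4; the median was 0.21. In the list of lipoprotein lipase and fatty acid uptake, 9 of 17 rose and 3 fell, with a median of 0.62; without the liver-rich libraries 1 fell. Lpl (0.72 ± 0.22) and the fatty acid receptor Cd36 (0.84 ± 0.19) rose, as did Fabp5 (1.66 ± 0.21), while the fatty acid transporter Slc27a1 had 669, 457, 558 and 531 CPM with corticosterone and 1377, 920, 1647 and 1102 CPM on chow, a fall of 1.19 ± 0.22 (adjusted p = 0.00026).

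Lipases and droplet proteins were uneven. The main triglyceride lipase Pnpla2 (0.16 ± 0.22, adjusted p = 0.582) and hormone-sensitive lipase Lipe (0.48 ± 0.22, adjusted p = 0.082) did not pass. G0s2, an inhibitor of Pnpla2, had 573, 459, 544 and 420 CPM with corticosterone and 196, 51.1, 68.1 and 66.6 CPM on chow, a rise of 2.39 ± 0.43 (adjusted p = 0.00018), or 3.01 without chow library 1. Monoacylglycerol lipase (Mgll, 1.02 ± 0.21), Pnpla3 (1.57 ± 0.29) and the droplet protein Plin3 (0.91 ± 0.10) rose, and the carboxylesterase Ces1f fell by 1.66 ± 0.34, a call lost without the liver-rich libraries (-1.18, adjusted p = 0.057). Of 24 members of the lipolysis and droplet list 10 rose and 1 fell, with a median of 0.55; without chow library 5 the count that rose was 6.

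De novo lipogenesis, the building of fatty acids from sugar, changed at some genes. The NADPH-producing genes G6pdx (494, 477, 457 and 542 CPM with corticosterone, against 140, 121, 129 and 108 CPM on chow; 1.99 ± 0.15, adjusted p = 9.8e-09) and Pgd (1.31 ± 0.14) rose, as did the lipogenic regulator Thrsp (2.07 ± 0.38). Fatty acid synthase (Fasn) was at 0.72 ± 0.29 (adjusted p = 0.055) and the desaturase Scd1 at -0.81 ± 0.33 (adjusted p = 0.053), neither past the threshold. In all, 7 of 21 rose and 2 fell, the desaturase Scd3 (-1.20 ± 0.32) and the elongase Elovl5 (-0.33 ± 0.10). Without the liver-rich libraries 0 fell, with Scd3 at -0.78 (adjusted p = 0.23) and Elovl5 at -0.26 (adjusted p = 0.21). The count that fell was 4 without the muscle-rich libraries and 5 with muscle and lymph node covariates.

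Cholesterol synthesis moved nearly as a block. Of 24 genes in the list, 19 rose and 0 fell, with a median log2 fold change of 1.08, and the count that rose was 18 to 20 in the settings tried. Hmgcs1, an early enzyme of the pathway, had 276, 247, 369 and 225 CPM with corticosterone and 80.5, 26.1, 35.6 and 33.2 CPM on chow (2.67 ± 0.31, adjusted p = 1.5e-06). The late-step enzymes Sc5d (2.12 ± 0.21), Hsd17b7 (1.87 ± 0.16) and Dhcr7 (1.65 ± 0.15) rose.

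Genes of glucose use and of mitochondria were also higher. In glycolysis 16 of 22 rose and 0 fell, with a median of 0.77. Aldoa had 2436, 2019, 2122 and 2074 CPM with corticosterone and 988, 631, 784 and 582 CPM on chow (1.53 ± 0.27, adjusted p = 0.00016). Tpi1 (1.28 ± 0.23), Gapdh (1.13 ± 0.22) and hexokinase 2 (Hk2, 1.02 ± 0.23) rose, and so did the insulin-regulated glucose transporter Slc2a4 (1.05 ± 0.28). In oxidative phosphorylation 24 of 25 nuclear-encoded members rose, by a median of 0.60, with Cycs (1.198 ± 0.19) and Cox5a (0.91 ± 0.18) among them. In 13 of the 25 all corticosterone libraries lay above all chow libraries. Cox4i1 was at 0.39 ± 0.16 (adjusted p = 0.056). Of the 13 protein genes of the mitochondrial genome, 9 rose and 0 fell, with a median of 0.62.

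In fatty acid oxidation and the TCA cycle 15 of 25 rose, with a median of 0.49, among them Acaa2 (1.25 ± 0.18), Acadm (1.18 ± 0.22) and Idh3a (1.398 ± 0.24). That count was 9 without chow library 2 and 9 without chow library 5. The peroxisomal enzyme Ehhadh was the member that fell (-0.71 ± 0.26), a call lost without any of 6 libraries (chow 2, 4 or 5, corticosterone 1, 2 or 4). Glutathione and antioxidant enzymes rose in 12 of 24 members and fell in 0, with a median of 0.35: the glutathione transferase Gsta3 (2.21 ± 0.38), plasma glutathione peroxidase Gpx3 (1.20 ± 0.19) and mitochondrial superoxide dismutase Sod2 (1.15 ± 0.18). Thermogenic genes showed no common direction. Of 18, Esrrg rose (2.12 ± 0.57) and Cox8b fell (-1.83 ± 0.44); without chow library 1 the count that rose was 5, and without the liver-rich libraries Cox8b lost its call. Ucp1, the uncoupling protein of brown fat, was near the floor at 0.413 to 2.01 CPM with corticosterone and 0 to 2.89 CPM on chow (0.45 ± 0.90, adjusted p = 0.714).

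Receptors that tell fat to release or keep lipid moved in both directions. Adrb3, the beta-adrenergic receptor that drives lipolysis in mouse fat, had 207, 119, 203 and 358 CPM with corticosterone and 895, 582, 523 and 626 CPM on chow, a fall of 1.56 ± 0.39 (adjusted p = 0.003). The antilipolytic receptor Adra2a fell too, to 0.257 to 0.454 CPM with corticosterone, against 1.94 to 2.86 CPM on chow (-2.52 ± 0.41), and Adra1a rose by 2.30 ± 0.26. Among natriuretic peptide receptors, the clearance receptor Npr3 (ENSMUSG00000022206, chromosome 15, 11839896 to 11905674, minus strand) had 1964, 2341, 2260 and 1591 CPM with corticosterone and 260, 151, 272 and 199 CPM on chow. It rose by 3.21 ± 0.23 (adjusted p = 7.6e-09), while the signalling receptor Npr1 fell by 1.04 ± 0.17 (adjusted p = 6.6e-05). The pair thus moved in opposite directions, each without overlap. Of the 22 members of this list 6 rose and 8 fell, with a median of -0.27, where 20.2% of all genes rose and 22.7% fell. Without the liver-rich libraries 4 fell and Adrb3 lost its call (adjusted p = 0.105).

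Insulin signalling changed at single genes. Of 25 members, 9 rose and 3 fell, with a median of 0.05. The count that fell was 0 to 1 without chow library 2 or 5, without any of the corticosterone libraries, or without the liver-rich or the muscle-rich ones. It was 0 with no filter on low counts, 5 with a filter of 1 CPM in 4 libraries and 6 under upper quartile scaling. The adaptor Grb14, an inhibitor of the insulin receptor, had 83.3, 90.3, 106 and 74.5 CPM with corticosterone and 50.2, 17.2, 18.2 and 13.8 CPM on chow, a rise of 1.83 ± 0.34 (adjusted p = 0.00024), or 2.44 without chow library 1. Irs3, a substrate of the receptor found in rodent fat, rose by 1.93 ± 0.24. In the IGF axis 4 of 14 rose and 6 fell (median -0.43), where 20.2% of all genes rose and 22.7% fell. Igfbp3, a carrier protein of IGF1, rose by 2.40 ± 0.40 and the growth hormone receptor Ghr by 0.90 ± 0.17, while Igf1 and Igf2 (-0.96 ± 0.27) fell, Igf2 not without the liver-rich libraries (adjusted p = 0.057).

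In the lists of stroma, matrix and vessels more genes fell than rose. In whole tissue, fewer cells of a type and less RNA per cell cannot be told apart. The same holds for more cells and more RNA per cell in the rises above. Of 20 collagens 10 fell and 3 rose, with a median of -0.68. Col3a1, a fibrillar collagen, had 944, 2497, 2383 and 904 CPM with corticosterone and 3205, 7511, 4754 and 6692 CPM on chow (-1.72 ± 0.35, adjusted p = 0.00058). Col1a1 fell by 1.93 ± 0.40, with 614 to 1639 CPM under corticosterone and 1539 to 7725 CPM on chow, so its groups overlapped, and Col1a2 and Col6a3 fell by 2.00 ± 0.34 and 1.42 ± 0.28. The 3 that rose, Col4a1 (0.66 ± 0.18), Col4a2 (1.02 ± 0.18) and Col18a1 (0.96 ± 0.23), encode basement membrane collagens. Without chow library 2, 5 rose. Without the liver-rich libraries 1 rose, and Col4a1 (adjusted p = 0.149) and Col18a1 (adjusted p = 0.057) lost their calls.

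Among 26 genes of matrix remodelling and crosslinking 13 fell and 7 rose, with a median of -0.56. Over all genes tested, 22.7% fell and 20.2% rose. Timp4, an inhibitor of metalloproteinases, had 918, 661, 672 and 884 CPM with corticosterone and 108, 49.3, 84.9 and 53.6 CPM on chow (3.40 ± 0.33, adjusted p = 2e-07). The crosslinking enzyme Lox rose by 2.12 ± 0.24. Fibronectin (Fn1, -1.97 ± 0.37), periostin (Postn, -2.05 ± 0.36) and the gelatinase Mmp2 (-1.56 ± 0.28) fell. Preadipocyte and stromal fibroblast genes fell in 15 of 23 members and rose in 3 (Fmo2, Zfp423 and F3, the last not without chow library 4 or 5, the liver-rich libraries or the muscle-rich ones), with a median of -0.999. Pdgfra, the receptor that marks fat progenitors, had 79.4, 98.7, 93.5 and 81.6 CPM with corticosterone and 128, 206, 195 and 194 CPM on chow (-1.03 ± 0.16, adjusted p = 4.8e-05). Dpp4 (-1.71 ± 0.33), Thy1 (-1.92 ± 0.43) and Dlk1 (-2.17 ± 0.46), the preadipocyte factor, were lower, and Fmo2, a flavin monooxygenase, rose by 1.91 ± 0.30. Adipocyte identity genes, by contrast, rose in 8 of 21 members and fell in 2 (Adrb3 and Nrg4), with a median of 0.39. Without the liver-rich libraries 9 rose and 0 fell, with Nrg4 at an adjusted p of 0.059. In that list the adipogenic regulators Pparg (0.41 ± 0.24, adjusted p = 0.173) and Cebpa (0.39 ± 0.23, adjusted p = 0.172) did not pass.

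Wnt signals, which restrain adipogenesis, changed at single ligands and inhibitors. Of 18 genes tested 7 fell and 3 rose (Sfrp5, Wif1 and Wnt11), with a median of -0.76, where 22.7% of all genes fell and 20.2% rose. Wnt11 (0.56 ± 0.20, adjusted p = 0.031) lost its call without chow library 1 or 2 or corticosterone library 1, 2 or 4, and without the liver-rich libraries. Wif1, a secreted Wnt inhibitor, lay at 0.813 to 1.57 CPM with corticosterone and 0 to 0.121 CPM on chow (4.09 ± 0.66). The ligand Wnt2 (-2.12 ± 0.46), the agonist Rspo3 (-2.99 ± 0.68) and Sfrp4 (-3.44 ± 0.62) fell. Rspo3 and Wif1 were under 2 CPM in every library, and Sfrp4 was at -4.13 without corticosterone library 2. Endothelial and angiogenic genes fell in 18 of 23 members, a count of 17 to 18 in the settings tried, with a median of -0.88. Pecam1 had 93.6, 85.3, 89.9 and 83.4 CPM with corticosterone and 155, 165, 129 and 152 CPM on chow (-0.77 ± 0.10, adjusted p = 4.2e-06). The endothelial genes Vwf (-1.34 ± 0.20), Eng (-1.01 ± 0.13), Kdr (-0.70 ± 0.18) and Sox17 (-2.02 ± 0.28) fell, as did the apelin receptor Aplnr (-3.01 ± 0.41). Vegfb, made by adipocytes among other cells, was the member that rose (0.64 ± 0.22, adjusted p = 0.023), and it did not pass without chow library 2.

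Interferon-stimulated genes fell in 15 of 21 members and rose in 0, with a median of -1.21. Oasl2, an antiviral sensor-like gene, had 8.17, 6.59, 6.89 and 10.3 CPM with corticosterone and 17.0, 67.4, 39.4 and 53.1 CPM on chow (-2.47 ± 0.56, adjusted p = 0.001). Mx1, an antiviral GTPase (-3.46 ± 0.86), and Irf7, the master regulator of the response (-1.52 ± 0.45), fell as well. Chow library 1 was the lowest of its group for all 3 genes and still above every corticosterone library. Without the liver-rich libraries, chow 1 and 4 among them, 6 members fell. Irf7 lost its call there, with 2 libraries left in each group, at a log2 fold change of -1.72 (adjusted p = 0.066). Complement genes fell in 10 of 18 members and rose in 1, Cd59a (0.99 ± 0.21), with a median of -0.62. C4b had 742, 793, 742 and 678 CPM with corticosterone and 1905, 2130, 2070 and 2530 CPM on chow (-1.55 ± 0.16, adjusted p = 5.1e-07), C2 fell by 2.15 ± 0.20 and C3 by 1.15 ± 0.22.

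Inflammatory mediators fell in 12 of 28 members and rose in 2, the haptoglobin gene Hp (1.72 ± 0.27) and the interleukin-1 receptor antagonist Il1rn, with a median of -0.54. Cxcl12, a chemokine made by stromal cells, had 68.1, 68.9, 80.4 and 66.4 CPM with corticosterone and 268, 254, 270 and 264 CPM on chow (-1.89 ± 0.14, adjusted p = 9.8e-09). The chemokine Cxcl10 (-1.62 ± 0.40) and the alarmin Il33 (-2.15 ± 0.58) fell, Cxcl10 not without the liver-rich libraries (adjusted p = 0.083). The count that fell was 7 without chow library 2, 6 without corticosterone library 1 and 6 without the liver-rich libraries. Il1rn had 8.39, 18.4, 20.1 and 23.3 CPM with corticosterone and 0.129, 10.4, 0.237 and 2.38 CPM on chow (2.40 ± 0.81, adjusted p = 0.021), was at 4.33 without chow library 2 and did not pass without chow library 5 (adjusted p = 0.059) or without the liver-rich libraries (adjusted p = 0.084). Lcn2, a lipocalin known as a glucocorticoid-induced adipokine, was at 1.47 ± 0.64 (adjusted p = 0.07). Macrophage genes did not shift together: of 23, 1 rose (Lyve1, 0.94 ± 0.25) and 4 fell (Itgam, Fcgr1, Aif1 and Retnla), with a median of 0.03. Of those that fell only Aif1 (-1.74 ± 0.37) kept its call with each library left out in turn. Without chow library 2, 4 rose and 2 fell; without chow library 1, 8 fell; and 2 fell without chow library 5 or corticosterone library 1, and also in the fit on the 8 compared libraries alone. Among 13 genes of lipid-associated macrophages 2 rose (Dcstamp and Fabp5) and 2 fell (Ctsk and Acp5); 4 rose without chow library 2, and 1 rose without chow library 1 or 4 or corticosterone library 2 or 3. Dcstamp lost its call without the liver-rich or the muscle-rich libraries. Lymph node markers other than Ighm, which lay at 219 to 614 CPM with corticosterone and 72.6 to 753 CPM on chow, were low in both groups. The mean over the list, as log2 CPM, was -1.18 to -0.87 in corticosterone libraries and 0.47 to 0.67 in chow libraries. Of 18 members 13 were below chow in every corticosterone library, 0 passed edgeR's test over all 24 libraries (0 at an unadjusted p under 0.05, 1 in DESeq2) and the median was -2.10. Fitted on the 8 compared libraries alone, 11 of the 18 fell. The part of lymphocytes in the falls above was not tested beyond the fit with lymph node covariates.

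Clock genes moved in both directions. Arntl, which encodes the activator BMAL1, had 25.1, 30.4, 26.7 and 20.9 CPM with corticosterone and 6.49, 8.90, 5.76 and 5.59 CPM on chow (1.95 ± 0.28, adjusted p = 1.5e-05). Its partner Clock (0.76 ± 0.13), the repressor Nfil3 (1.71 ± 0.23) and Rora (0.51 ± 0.16) rose with it. Dbp, an output gene driven by BMAL1 through E-boxes, had 8.85, 6.48, 8.17 and 12.7 CPM with corticosterone and 75.0, 62.0, 92.1 and 87.3 CPM on chow (-3.13 ± 0.28, adjusted p = 7.9e-08). Ciart, whose promoter with 3 E-boxes is shown above, had 1.29, 1.34, 1.44 and 0.941 CPM with corticosterone and 4.53, 4.98, 16.0 and 5.20 CPM on chow, a fall of 2.61 ± 0.37 (adjusted p = 1.7e-05), or -1.96 without chow library 4. Per3 (-1.63 ± 0.22), Nr1d2 (-1.56 ± 0.15) and Nr1d1 (-0.85 ± 0.22) fell. In the list as a whole 4 of 19 rose, close to the share of all genes (20.2%), and 9 fell, with a median of -0.65; without the liver-rich libraries 5 fell and Nr1d1 lost its call. Since the time of collection is not given, a shift of phase and a change of level cannot be told apart.

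Imprinted growth genes, which are expressed from 1 parental allele, rose in 8 of 15 members and fell in 3 (Dlk1, Igf2 and Meg3), with a median of 0.60. Peg10 had 151, 166, 158 and 106 CPM with corticosterone and 9.57, 13.8, 15.2 and 10.2 CPM on chow (3.58 ± 0.31, adjusted p = 4.9e-08). Zim1 rose by 2.09 ± 0.31 and Mest, which tracks fat expansion in mice, by 2.51 ± 0.39. The noncoding gene Meg3 fell by 2.08 ± 0.31, in step with its neighbour Dlk1. Haemoglobin transcripts rose, Hbb-bs by 1.90 ± 0.32 and Hba-a1 by 1.85 ± 0.32. Cell cycle genes (1 of 22 rose, 0 fell; 8 rose without chow library 2) and immediate-early genes (2 of 22 rose, 2 fell; 0 fell without the liver-rich libraries) showed few calls.

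**Figure D4:**
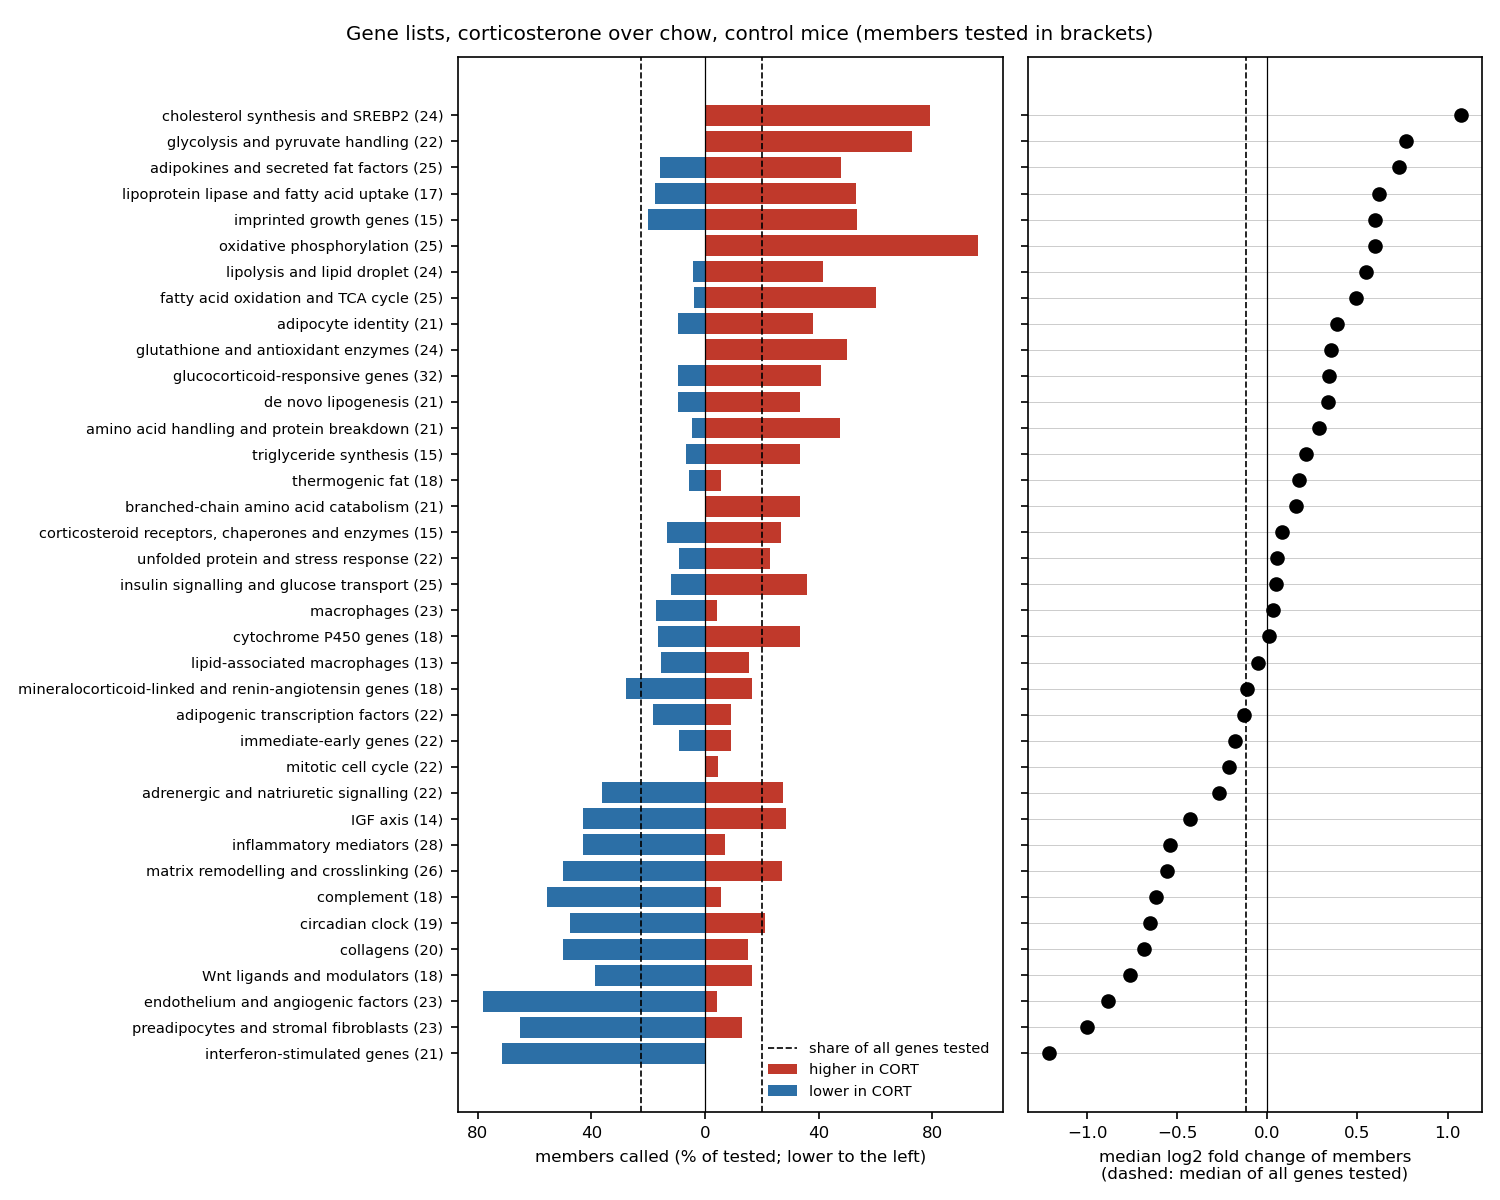
For each gene list, the percentage of tested members called higher (red, to the right) and lower (blue, to the left) with corticosterone in control mice, and beside it the median log2 fold change of corticosterone over chow, with dashed lines for all genes tested. Of the pathway lists, cholesterol synthesis (median 1.08) and glycolysis (0.77) are the highest, and interferon-stimulated genes (-1.21), stromal genes (-0.999) and endothelium (-0.88) the lowest.

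Set directly against high-fat diet in control mice, with the same 4 corticosterone libraries, 2097 genes were higher with corticosterone (10.6%) and 2807 lower (14.2%), 4904 or 24.9% in all. Because both comparisons use the corticosterone libraries, their values are given side by side and not as independent evidence. Hsd11b1 was higher in corticosterone libraries than on either diet, by 3.63 ± 0.27 on the log2 scale against high-fat diet and 2.89 against chow. Hspb7 (6.48 ± 0.62), Timp4 (3.71 ± 0.34), Agt (3.72 ± 0.53) and Gpx3 (3.39 ± 0.21) were also higher than on high-fat diet. Lep averaged 2775 CPM with corticosterone (1961 to 3412) and 1840 CPM on high-fat diet (1464 to 2210), n = 4 each. That difference did not pass (0.59 ± 0.27, adjusted p = 0.108), and the ranges overlapped. Cfd was close in the 2 treatments, 1488 ± 344 CPM with corticosterone and 1744 ± 606 CPM on high-fat diet (SD, n = 4 each). Its log2 fold change was -0.23 ± 0.32 (adjusted p = 0.636). Mest went the other way, 84.3 ± 50.2 CPM with corticosterone and 925 ± 223 CPM on high-fat diet (-3.46 ± 0.40, adjusted p = 4.8e-06). In the cholesterol synthesis list 2 members were higher and 9 lower than on high-fat diet, and in the endothelial list 2 were higher and 17 lower. High-fat diet control libraries 1 and 4 stood apart in lymph node markers (mean log2 CPM 4.37 and 5.99, against 1.46 and 1.73 in libraries 2 and 3) and library 3 in muscle markers (3.95). Liver markers had a mean log2 CPM of 4.39, 0.55, 6.94 and 3.46 in high-fat diet control libraries 1 to 4. With lymph node and muscle markers as covariates 3114 genes were called. Without the liver-rich corticosterone and chow libraries 2313 were called. That fit kept all 4 high-fat libraries, so in this comparison liver-rich libraries were left out on the corticosterone side only.

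The same treatment in FMRKO mice used 8 other libraries. There 3989 genes rose (20.2%) and 4113 fell (20.9%), 8102 or 41.1% in all. Of the 3986 genes that rose in control mice, 3927 (98.5%) had the same sign in FMRKO mice. In all, 3285 (82.4%) passed the test there in the same direction, while 3 passed in the opposite one. Among these 3 were the muscle marker Pvalb and Tmem233. Both were highest in control corticosterone library 2 (43.8 and 2.73 CPM) and FMRKO chow library 5 (385 and 16.0 CPM) within their groups. Muscle markers had a mean log2 CPM of 6.42 and 8.87 in those 2 libraries. Of the 4467 that fell, 4345 (97.3%) had the same sign, 2803 (62.7%) passed in the same direction and 0 in the opposite. Lep rose by 4.27 ± 0.30 in FMRKO mice and 4.00 ± 0.30 in control mice, Hsd11b1 by 3.18 ± 0.26 and 2.89 ± 0.26, Hspb7 by 6.88 ± 0.63 and 7.13 ± 0.64, and Npr3 by 3.31 ± 0.23 and 3.21 ± 0.23, in the same order. Tested directly, the effect of corticosterone differed between FMRKO and control mice in 0 genes in edgeR (0.0%; 1171 at an unadjusted p under 0.05) and in 4 in DESeq2 (1231 unadjusted). By chance alone a share of about 0.05 of the genes tested would lie under that unadjusted p. A gene that did not pass was not shown to respond alike in both genotypes.

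**Figure D5:**
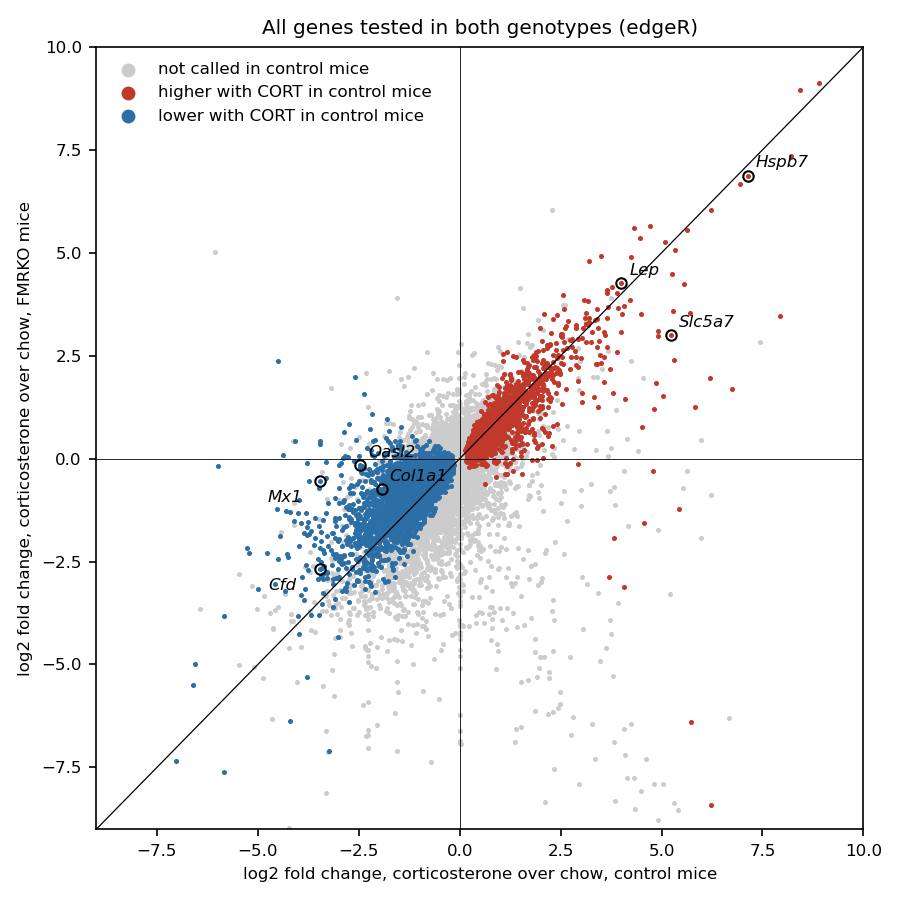
Log2 fold change of corticosterone over chow in FMRKO mice (vertical) against control mice (horizontal), 1 point per gene tested, coloured by the call in control mice, with the line of equal change; 2 genes lie outside the axes. Lep and Hspb7 lie high and Cfd low in both genotypes, while Oasl2 and Mx1 lie low in control mice and near 0 in FMRKO mice.

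The medians of interferon-stimulated genes and of lipid-associated macrophage genes differed between the genotypes. For interferon-stimulated genes the median was -0.15 in FMRKO mice, with 4 of 21 members lower, and -1.21 in control mice, with 15 lower. A single library stood apart in Oasl2, which had 10.4, 88.6, 12.1 and 12.5 CPM in FMRKO corticosterone libraries 1 to 4. Lymph node markers had a mean log2 CPM of -0.92, 2.67, 2.36 and -1.04 in the same libraries. The chow libraries differed too. These markers were at 6.05, 0.54, 5.17 and 0.77 in FMRKO chow libraries 1, 2, 3 and 5, and at 0.47 to 0.67 in control chow libraries. The part of this unlike baseline in the medians was not tested. Without FMRKO corticosterone library 2 the median was -0.96, 16 of 21 members fell, and the log2 fold change of Oasl2 in FMRKO mice was -1.56 ± 0.35 (adjusted p = 0.001924), against -0.15 ± 0.53 with it. The difference of the Oasl2 effect, FMRKO minus control, was 2.32 ± 0.76 with all libraries in the fit (adjusted p = 0.619). Genes of lipid-associated macrophages had a median of 1.599 in FMRKO mice, with 6 of 13 higher and 2 lower, and of -0.05 in control mice, with 2 higher and 2 lower. In FMRKO mice 4 were higher without chow library 1, 3 or 5 or corticosterone library 1, 3 or 4, and 0 were lower without chow library 2 or 5 or corticosterone library 2. The difference did not pass the test for any member of either list.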

How the data were processed

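Total RNA of inguinal white fat was sequenced after depletion of ribosomal RNA (KAPA RiboErase), per the labels' protocols. The authors deposited, for each library, counts of reads per gene, made with STAR 2.5.1a and featureCounts 1.4.6p-5 on GRCm38 per the submitters' processing notes; the sources used here do not state the annotation, the strand setting or how multiply mapped reads were handled. Reads of overlapping genes on opposite strands, and of near-identical copies, therefore cannot be told apart. The deposited CPM and RPKM columns, made by the authors from these counts per the file headers, were only checked against the counts. Of 41388 genes, 97.26% had a symbol in GENCODE M21.

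Counts of all 24 libraries were fitted with edgeR 4.0.16 in R 4.3.3: filterByExpr with a minimum count of 10 (19717 genes kept), TMM scaling, 1 mean per group, 18 residual degrees of freedom, quasi-likelihood F tests, and Benjamini-Hochberg adjustment over all genes tested with a threshold of 0.05, two-sided. Dispersion averaged 0.1133 over genes (common estimate; BCV 33.66%), so the spread between libraries and not counting error set the precision. Errors of log2 fold changes are standard errors, and n = 4 per group. Between 22249 and 24382 genes had a count in each of the 8 libraries. No pair of libraries agreed within sampling noise. The fit was tested on simulated data with known changes.

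Members, gene lists and comparisons were chosen with earlier results of these data known. Lists are described by the count of members past the threshold and their median beside all genes, with no set test. Genes named are members of the lists chosen for size, direction against the list or prominence, the 15 largest changes each way among genes of at least 2 CPM, those of smallest p and the most abundant. Hepatocyte markers and the liver-related settings were added after the data were seen. Alternatives were DESeq2 1.42.0, other scalings and filters, only the groups compared, the replicate number as a block, marker covariates, and libraries left out. Same-numbered corticosterone and chow control libraries did not deviate together (r = 0.321, 0.165 and -0.31), so the numbers were not taken to pair them. Some genes of the lists are counted but not reported here by name.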

Additional observations from a re-analysis of the deposited data

Results flagged for a closer look

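Among 380 groups of 4 libraries examined, values standing apart from the other 3 by Dixon's criterion numbered 24 (chance alone flags about 1 group in 20). In corticosterone libraries these were Aoc3 (2434 CPM) and Col4a2 (1846 CPM) in library 4, the lowest of their groups, Adra2a (0.2567 CPM, lowest) in library 4, Ptchd4 (10.52 CPM, lowest) in library 3, and Vegfb (134.6 CPM, lowest) and Elovl5 (51.95 CPM, highest) in library 2. Skeletal muscle markers summed to 2653 CPM in corticosterone library 2 and mesothelium markers to 4.767 CPM in corticosterone library 1, both the highest. In chow library 2 Dgat2 (176.1 CPM), Dhcr7 (7.811 CPM) and Nr1d2 (82.9 CPM) were lowest and Lcn2 (7.66 CPM), Hspb7 (4.976 CPM) and Rnase2a (0.06031 CPM) highest. In chow library 1 Pdgfra (127.6 CPM) was lowest and G0s2 (195.7 CPM), Grb14 (50.24 CPM), Esrrg (0.4819 CPM) and Ucp1 (2.891 CPM) highest. In chow library 4 H6pd (522.8 CPM), Per1 (369.9 CPM), Ciart (15.99 CPM) and the summed lymph node markers (778 CPM) were highest. In FMRKO mice Oasl2 (88.61 CPM) stood apart in corticosterone library 2.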

How the results depend on the processing

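Corticosterone against chow in control mice gave 7654 to 9054 calls under DESeq2, other scalings and filters, marker covariates, the muscle-rich libraries left out or only the groups compared, against 8453, and 7150 to 8478 with each library left out in turn. DESeq2 gave 9018, of which 8335 were shared with edgeR. Leaving out the 4 liver-rich libraries, which also leaves 2 libraries in each group, gave 5547 calls (5271 shared), 2503 of them lower. Against high-fat diet the same choice, which kept all 4 high-fat libraries, gave 2313 calls, and muscle and lymph node covariates 3114 (2114 shared). The main count there was 4904, and single libraries left out gave 3753 to 5689. In FMRKO mice 6860 to 8161 genes were called with a library left out, against 8102. The difference between genotypes gave 4 calls in DESeq2 and 0 in every other setting tried. With the replicate number as a block, 7622 genes were called in control mice (7362 shared), 4806 against high-fat diet, 7677 in FMRKO mice and 0 for the difference. Genes that rose made up 47.15% of calls, and 38.21% under upper quartile scaling, which put the median of all genes at -0.202. Genes that rose outnumbered those that fell with RLE size factors (50.33%), no filter on low counts (51.82%), the muscle-rich (51.18%) or liver-rich (54.88%) libraries left out, and without chow library 2 (52.69%), chow library 5 (52.17%) or any corticosterone library (51.79% to 52.62%). For the 180 genes followed, 3281 of 3416 values across settings kept direction and side of the threshold. Another 91 lost a call, 44 gained a call, and 0 reversed. By setting, 22 lost it without the liver-rich libraries, 7 without the muscle-rich ones, 4 under the block and 0 with the liver covariate. The 22 were Hsd11b2, Sgk1, Nfkbia, Adrb3, Col4a1, Cxcl10, Il1rn, Irf7, Nr1d1, Cox8b, Col18a1, Abcb1a, Ncoa1, Nrg4, Ces1f, Dcstamp, F3, Wnt11, Igf2, Scd3, Elovl5 and Ifit1. The cause of these changes was not tested. Depth did not limit the abundant genes; for those under 2 CPM, single counts weigh.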
